A study of Mus musculus with 4 samples.

Results

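Cxcl12 and Ackr3 encode a chemokine and the receptor that removes it, 2 of the 11049 genes listed in all 3 library tables of a droplet 3′ single-cell RNA-seq study of mouse kidney. They were chosen from UMI counts (unique molecular identifiers, 1 per captured RNA molecule) in these same cells, so their levels by cell set are a description and carry no test. Cells were read in sets. Endothelial cells held at least 3 UMIs of Pecam1, Cdh5, Kdr and Tie1 together and at least 12 such UMIs per 10000. They were split by UMIs of Fbln5, Ptn or Igfbp3, and all remaining cells formed the non-endothelial set.

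All mice were C57BL/6J, 10 to 14 weeks old. The groups were angiotensin II-induced hypertension (A2 HTN), salt-sensitive hypertension (SS HTN), and 2 controls, saline for the angiotensin II model and normal diet for the salt-sensitive model. Kidneys of all mice of a group were pooled and dissociated. Cells were selected with biotinylated anti-CD31 and then anti-podoplanin antibodies, giving 1 library a group, so there is no replicate and intervals below cover counting error only. The table of the control groups joins both of their libraries, and no source used here ties either barcode ending to a model. Control therefore means both summed, with control library 1 and control library 2 given apart where it matters.

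The tables held 2837 A2 HTN cells, 3284 SS HTN cells and 4414 control cells, with 7479337, 6471741 and 4529656 UMIs. The endothelial gate took 1223 A2 HTN cells (43.1%), 1517 SS HTN cells (46.2%) and 145 control cells (3.29%), of which 19 were in control library 1 and 126 in control library 2. Median depth in endothelial cells was 4792 UMIs in A2 HTN, 2371 in SS HTN and 2684 in control. Most cells outside the gate carried tubule markers: 1365 A2 HTN, 1463 SS HTN and 3929 control cells passed a tubule-marker gate and no other. Most control cells thus carried tubule markers under the label CD31+/podoplanin+. Libraries shared between 0 and 2 cell barcodes. In all, 8 endothelial markers outside the gate (Egfl7, Emcn, Ptprb, Cldn5, Eng, Plvap, Ehd3 and Esam) summed to 11910 CPM (UMIs per 1000000 of the cell set) in A2 HTN, 9117 CPM in SS HTN and 11501 CPM in control gated cells. Outside the gate they summed to 2033, 1872 and 747 CPM.

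CXCL12 is a chemokine that signals through the receptor CXCR4 and guides leukocytes, progenitor cells and growing vessels. It is known as a product of arterial endothelium and of stromal cells. ACKR3 (CXCR7) binds the same ligand with high affinity but does not couple to G proteins in the usual way. It recruits arrestin, carries CXCL12 into the cell for degradation, and so shapes the gradient that CXCR4 reads. ACKR3 also takes up CXCL11 and adrenomedullin.

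Cxcl12 lies on the plus strand of mouse chromosome 6 (GRCm38, chr6:117168535-117181367) with 3 annotated coding transcripts that have 3 different 3′ ends. Ackr3 lies on the plus strand of chromosome 1 (chr1:90203980-90216751) with 2 coding transcripts and 2 different 3′ ends. The kit reads 3′ ends, and the tables give 1 count a gene, so transcript forms are not separated. The 250 bases before each annotated start (RefSeq, GRCm38.p6, plus strand, chr6:117168285-117168534 and chr1:90203730-90203979) are shown because the levels of the pair are given by cell subset below. Capitals mark TATAAA, and CCGCCC on either strand.
Cxcl12: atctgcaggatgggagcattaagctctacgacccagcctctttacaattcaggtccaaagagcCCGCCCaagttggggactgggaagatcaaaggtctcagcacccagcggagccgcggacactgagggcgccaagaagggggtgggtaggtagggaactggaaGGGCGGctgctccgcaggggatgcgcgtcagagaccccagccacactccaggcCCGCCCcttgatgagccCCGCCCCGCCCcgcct
Ackr3: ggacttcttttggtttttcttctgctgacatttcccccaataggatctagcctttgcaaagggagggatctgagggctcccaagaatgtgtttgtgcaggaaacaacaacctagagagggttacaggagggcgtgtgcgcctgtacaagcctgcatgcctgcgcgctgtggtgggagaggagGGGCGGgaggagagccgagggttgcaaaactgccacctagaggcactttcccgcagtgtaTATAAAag

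The Cxcl12 window was 64.4% G or C, held 5 CCGCCC matches, a pair of them overlapping, and no TATAAA. The Ackr3 window was 54.0% G or C and held 1 TATAAA, starting 8 bases before the gene start, and 1 CCGCCC. Among 32851 promoter windows of that length the median was 52.4% G or C, 12.4% held TATAAA and 32.7% held CCGCCC, each searched on both strands. These matches describe letters and are no evidence of binding.

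In endothelial cells Cxcl12 stood at 27.2 CPM in A2 HTN (95% exact Poisson interval 23.0 to 31.9, 150 UMIs), 106 CPM in SS HTN (95.9 to 116, 419 UMIs) and 15.9 CPM in control (5.83 to 34.6, 6 UMIs). SS HTN was thus the high library, and the intervals of A2 HTN and control overlapped. The log2 ratio of CPM + 5 was −1.78 for A2 HTN over SS HTN (interval of the plain ratio −2.24 to −1.69), 2.41 for SS HTN over control (1.60 to 4.19) and 0.62 for A2 HTN over control (−0.38 to 2.24). Among all genes with at least 20 UMIs, 2.51% were at least 2-fold lower and 0.411% higher in A2 HTN than in SS HTN. Over control, 3.44% were at least 2-fold higher and 1.76% lower in SS HTN, and 2.08% higher and 3.78% lower in A2 HTN. These shares are printed beside the ratios and nothing is read from them, since the pair was chosen from such contrasts. By cells, 4.42% of A2 HTN, 8.44% of SS HTN and 3.45% of control endothelial cells had a Cxcl12 UMI. After thinning every cell to 1000 UMIs these shares were 1.93%, 4.67% and 1.48%.

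Ackr3 in endothelial cells stood at 19.9 CPM in A2 HTN (16.4 to 24.0, 110 UMIs), 34.1 CPM in SS HTN (28.6 to 40.3, 135 UMIs) and 15.9 CPM in control (5.83 to 34.6, 6 UMIs). No pair of groups was 2-fold apart on the log2 scale of CPM + 5, though the plain ratio of SS HTN over control was 2.14. The log2 ratio was −0.65 for A2 HTN over SS HTN (−1.15 to −0.40), 0.25 for A2 HTN over control (−0.84 to 1.80) and 0.90 for SS HTN over control (−0.06 to 2.57). Both comparisons with control rest on 6 control UMIs, and they share those control cells. Control library 1 held 2 Cxcl12 UMIs and 0 Ackr3 UMIs in 19 endothelial cells, and against it alone the Cxcl12 ratio was −0.97 for A2 HTN and 0.81 for SS HTN.

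Among SS HTN endothelial cells positive for a single split gene, the pair was highest in different subsets. In A2 HTN the cells positive for Ptn alone held 1 Ackr3 UMI, too few to place Ackr3, and control had 0 such cells. Fbln5 encodes an elastic-fibre protein and is used here as an arterial marker, Ptn (pleiotrophin) as a venous marker and Igfbp3 as a peritubular capillary marker. Subsets held cells positive for 1 of these genes alone, for more than 1, or for none. Markers outside the split bore out these names only in part. The arterial genes Gja4, Sox17, Mgp, Eln and Clu summed to 4260 CPM in A2 HTN and 4224 CPM in SS HTN Fbln5 cells, against 410 and 484 CPM in Igfbp3 cells. The venous genes Nr2f2, Vcam1 and Sema3d summed to 1898 CPM in A2 HTN and 2344 CPM in SS HTN Ptn cells, against 230 and 107 CPM in Igfbp3 cells. Ptn cells summed to 4323 CPM in A2 HTN and 2329 CPM in SS HTN on the arterial list too, mostly from Mgp at 4112 and 1822 CPM, so that list does not part them from Fbln5 cells. They were few, 5 in A2 HTN, 20 in SS HTN and 0 in control. The 5 control Fbln5 cells had 616 CPM of the arterial list and 0 UMIs of Gja4, while glomerular genes summed to 5546 CPM, so the arterial name is not used for them.

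Cxcl12 was high in Fbln5 cells, at 262 CPM in A2 HTN (204 to 331, 69 UMIs in 66 cells) and 211 CPM in SS HTN (176 to 251, 125 UMIs in 174 cells). In Igfbp3 cells it stood at 7.48 CPM in A2 HTN (27 UMIs in 770 cells) and 30.9 CPM in SS HTN (42 UMIs in 555 cells). The Fbln5 level was above the Igfbp3 level in both libraries, by a log2 ratio of 4.42 in A2 HTN (4.47 to 5.83 for the plain ratio) and 2.59 in SS HTN (2.26 to 3.31). In those contrasts 4.63% and 3.67% of all genes tested were at least 2-fold higher. Ptn cells held 0 Cxcl12 UMIs in 5 A2 HTN cells, which allows up to 316 CPM, and 79.2 CPM in SS HTN (5 UMIs in 20 cells). Cxcl12 was not low in every Ptn-positive cell: with cells that also held Fbln5 or Igfbp3, the SS HTN level was 213 CPM (28 UMIs in 37 cells). Among control cells Cxcl12 had 1 UMI in 5 Fbln5 cells and 0 UMIs in 67 Igfbp3 cells, which allows up to 15.6 CPM there.

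Ackr3 was high in Ptn cells. In SS HTN it stood at 570 CPM there (399 to 789, 36 UMIs), and 13 of the 20 cells had a UMI. A2 HTN had only 5 such cells and 1 UMI, or 105 CPM (2.67 to 587). Fbln5 cells held 30.4 CPM in A2 HTN and 21.9 CPM in SS HTN, and Igfbp3 cells 14.7 CPM in A2 HTN and 7.35 CPM in SS HTN. The log2 ratio of Ptn over Igfbp3 cells was 5.54 in SS HTN (5.24 to 7.45), where 11.3% of genes tested were at least 2-fold higher. Counting every cell with a Ptn UMI, whatever its other markers, Ackr3 stood at 684 CPM in A2 HTN (22 UMIs in 10 cells) and 670 CPM in SS HTN (88 UMIs in 37 cells). Of the 22 A2 HTN UMIs, 19 came from 1 cell, and in SS HTN 62.2% of the cells had a UMI. Control held 2 Ackr3 UMIs in 3 Ptn-positive cells.

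**Figure D1:**
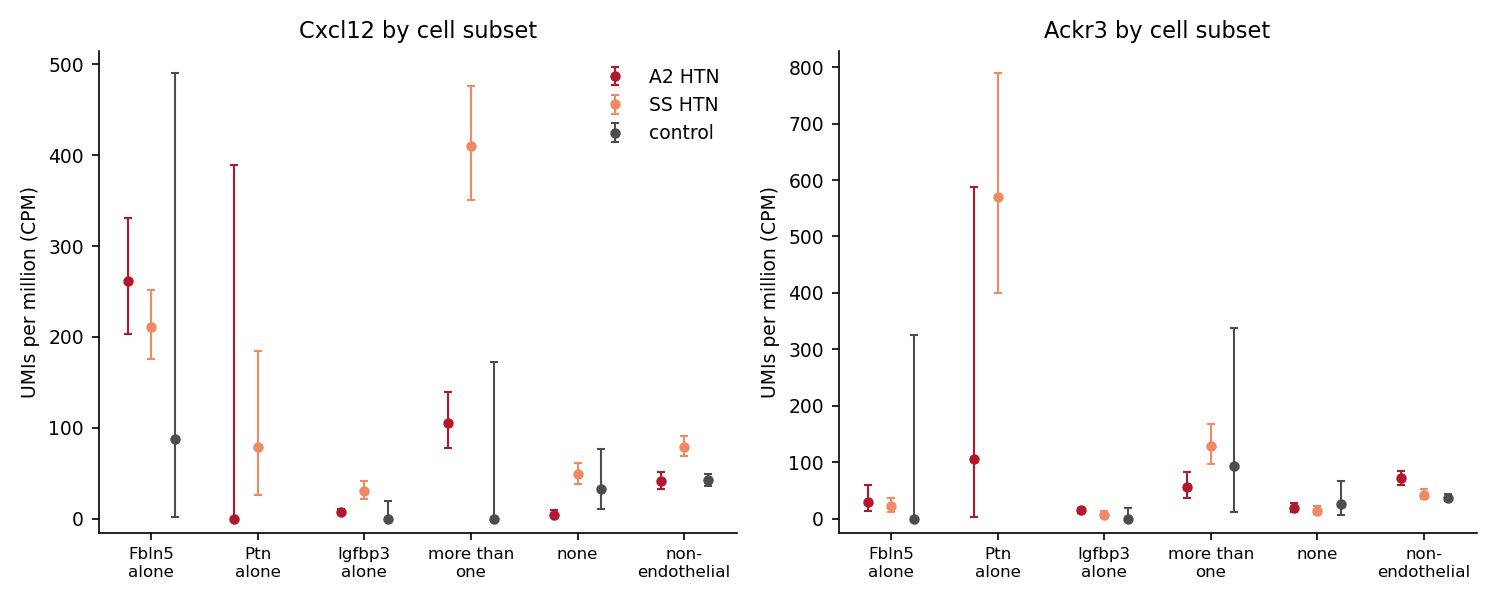
Level in CPM (y axis) of Cxcl12 (left) and Ackr3 (right) in each endothelial subset and in non-endothelial cells, for A2 HTN, SS HTN and control; points are sums over cells and bars are 95% exact Poisson intervals. Cxcl12 stands high in Fbln5 cells (262 and 211 CPM in A2 HTN and SS HTN) and in SS HTN cells with more than 1 split gene (410 CPM), and Ackr3 in SS HTN Ptn cells (570 CPM), while control bars in the small subsets are wide.

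As shares of all endothelial UMIs of the gene, Fbln5-positive cells made up 13.4% of A2 HTN, 19.4% of SS HTN and 8.28% of control endothelial cells and held 78.7%, 69.2% and 16.7% of Cxcl12. Ptn-positive cells were 0.818%, 2.44% and 2.07% of endothelial cells and held 22 of 110 Ackr3 UMIs in A2 HTN, 88 of 135 in SS HTN and 2 of 6 in control. Igfbp3-positive cells were 70.9% of A2 HTN and 43.8% of SS HTN endothelial cells. They held 52.7% of Ackr3 in A2 HTN and 8.89% in SS HTN, and 48.7% and 47.3% of Cxcl12. Fbln5-positive cells held 30.9% of Ackr3 in A2 HTN, 49.6% in SS HTN and 33.3% in control. A cell with more than 1 of these genes counts in each set, so the shares overlap. Most Ackr3 UMIs in A2 HTN endothelium thus lay outside the Ptn-positive cells. In the 770 A2 HTN Igfbp3 cells, 41 had a UMI, with 53 UMIs between them. In A2 HTN the share of Igfbp3 cells with an Ackr3 UMI was 5.32% at a median depth of 4878 UMIs. It was 7.55% in tubule-marker cells at a median depth of 852 UMIs. Whether single UMIs in those endothelial cells come from the cells or from free RNA in the droplets was not tested.

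**Figure D2:**
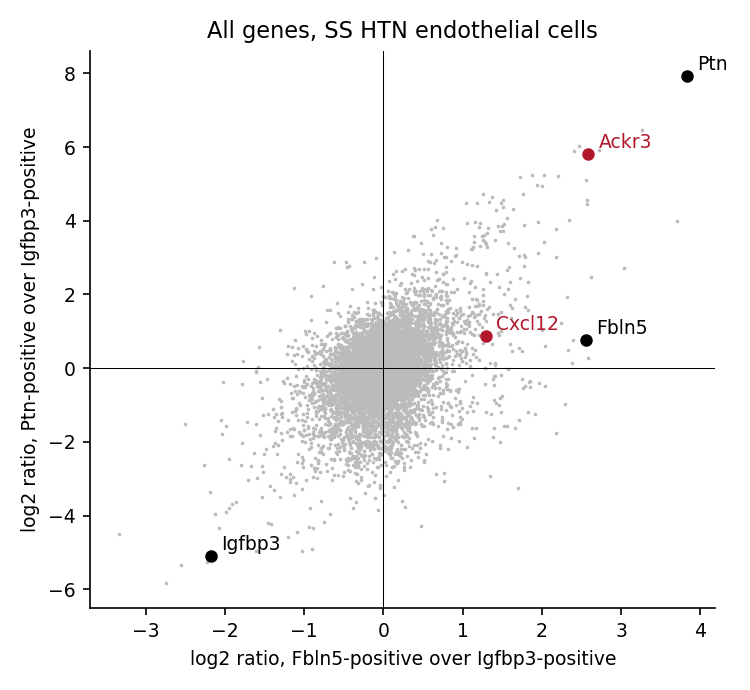
Each grey point is 1 gene in SS HTN endothelial cells, with the log2 ratio of Fbln5-positive over Igfbp3-positive cells (x axis) and of Ptn-positive over Igfbp3-positive cells (y axis); the split genes are black and the pair red. Ackr3 lies near the upper end at 5.82 on the Ptn axis and at 2.58 on the Fbln5 axis. Cxcl12 lies lower on both, at 0.86 on the Ptn axis and 1.29 on the Fbln5 axis. Cells may hold more than 1 split gene.

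A part of each transcript lay in few endothelial cells. Cells with at least 5 Cxcl12 UMIs numbered 10 in A2 HTN and 29 in SS HTN and held 56.0% and 60.1% of the gene's endothelial UMIs. Of these, 9 of the 10 and 21 of the 29 were Fbln5-positive, and 4 of the 10 and 13 of the 29 were Igfbp3-positive. Among all endothelial cells of A2 HTN and SS HTN, 13.4% and 19.4% were Fbln5-positive, and 70.9% and 43.8% Igfbp3-positive. The highest single cell had 18 Cxcl12 UMIs in A2 HTN and 15 in SS HTN. Stromal markers summed to 121 CPM in the 10 A2 HTN cells and 0 CPM in the 29 SS HTN cells, and none of these cells passed the stromal gate. For Ackr3, 14 SS HTN cells had at least 3 UMIs and held 57.8% of the total. Of those, 13 were Ptn-positive, 7 Fbln5-positive and 0 Igfbp3-positive. In A2 HTN 8 cells did, 1 Ptn-positive, 3 Fbln5-positive and 3 Igfbp3-positive. They held 44 of 110 UMIs, 19 of them in 1 cell, which was positive for both Fbln5 and Ptn. A single UMI was all that 48 of the 65 A2 HTN cells with Ackr3 had.

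Cells with both transcripts were rare. In endothelial cells there were 2 in A2 HTN, 9 in SS HTN and 0 in control, against 2.87, 5.23 and 0.138 if the genes were independent. In non-endothelial cells there were 3, 7 and 6, against 4.12, 6.92 and 5.36. At these counts neither an excess nor a lack of double-positive cells is detectable.

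**Figure D3:**
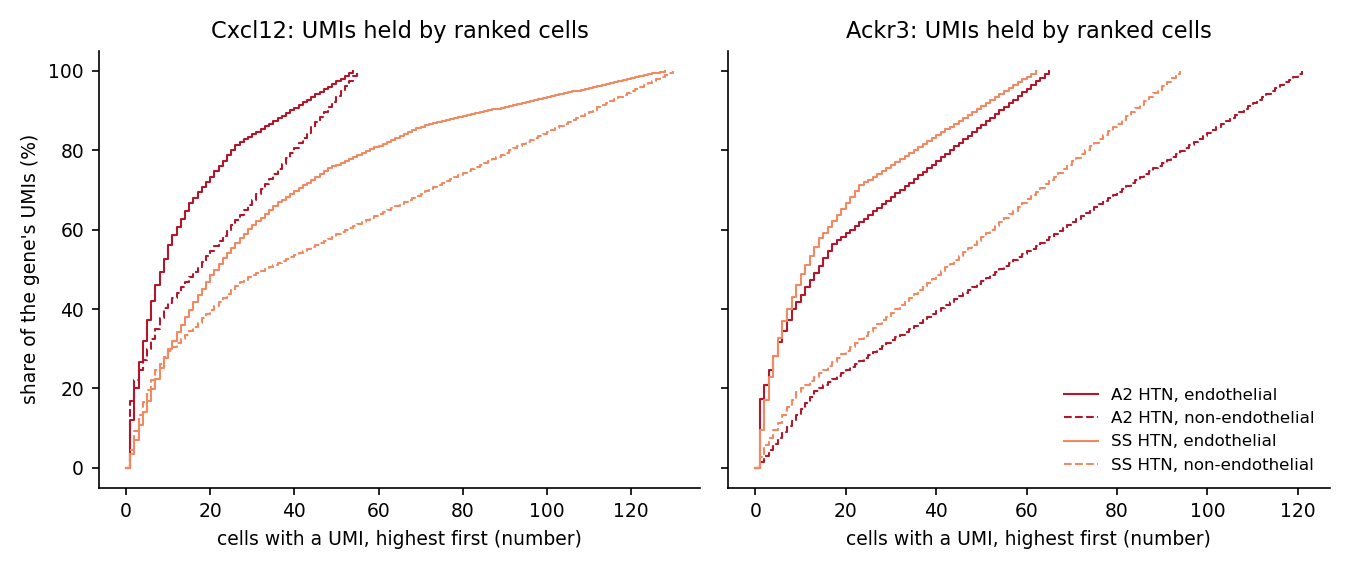
Cells with a UMI of Cxcl12 (left) or Ackr3 (right) are ranked from the highest (x axis, number of cells), and the y axis gives the share of the gene's UMIs held so far, in percent; solid lines are endothelial and dashed lines non-endothelial cells. Endothelial lines rise steeply, since 10 A2 HTN cells hold 56.0% of Cxcl12, while the Ackr3 lines of non-endothelial cells are nearly straight.

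The Cxcl12 ratio of A2 HTN over SS HTN was also taken within subsets. In Fbln5 cells the log2 ratio of A2 HTN over SS HTN was 0.30 (−0.14 to 0.75), and the intervals of the levels overlapped. It was −1.52 in Igfbp3 cells (−2.80 to −1.31), −1.91 in cells positive for more than 1 gene (−2.45 to −1.49) and −2.55 in cells positive for none (−5.19 to −2.24). At least 2-fold lower were 2.15%, 3.32% and 2.09% of genes tested in those subsets. In cells with more than 1 gene the levels were 105 CPM in A2 HTN and 410 CPM in SS HTN, most of them Fbln5 together with Igfbp3. Cells positive for none held 5 Cxcl12 UMIs in 282 A2 HTN cells and 75 in 644 SS HTN cells. Over all Fbln5-positive cells, whatever else they held, the levels were 164 CPM in A2 HTN and 289 CPM in SS HTN (log2 ratio −0.80). Differences between subsets in this ratio were not tested. Since 1 UMI makes a cell positive, its subset can depend on depth, and median endothelial depth was 4792 UMIs in A2 HTN and 2371 in SS HTN. Cells positive for none were 23.1% of A2 HTN and 42.5% of SS HTN endothelial cells, and Igfbp3 cells 63.0% and 36.6%. A subset may thus not hold like cells in both libraries, and the part of this was not tested. In SS HTN Igfbp3 cells, 15 of the 42 Cxcl12 UMIs came from 1 cell.

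The same comparison for Ackr3 was 0.67 in Igfbp3 cells (0.01 to 2.14), 0.29 in cells positive for none (−0.54 to 1.30) and −1.13 in cells positive for more than 1 gene (−1.94 to −0.50). Over all Ptn-positive cells it was 0.03 (−0.715 to 0.717), an interval that does not show equal levels, and the A2 HTN value rests on 1 cell. In Ptn cells alone it was −2.38 (−7.78 to 0.13). Weighting the 5 subsets equally gave −0.99 for Cxcl12 and −1.62 for Ackr3 in A2 HTN over SS HTN, against −1.78 and −0.65 with cells as they occurred. That weighting counts the 5 A2 HTN Ptn cells, with 0 Cxcl12 UMIs and 1 Ackr3 UMI, as much as any other subset. The summed arterial markers in all endothelial cells were 741 CPM in A2 HTN, 1328 CPM in SS HTN and 405 CPM in control, the order that Cxcl12 had. Stromal markers summed to 33.7, 47.0 and 50.3 CPM and tubule markers to 422, 819 and 1388 CPM in those cells. Their part in the Cxcl12 and Ackr3 differences was not tested.

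**Figure D4:**
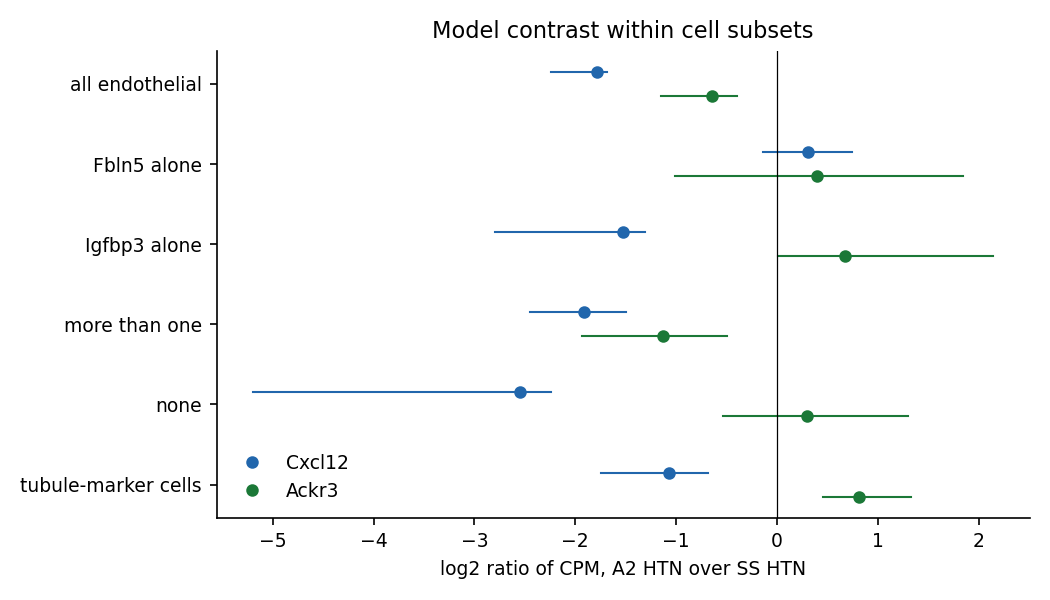
Log2 ratio of CPM + 5, A2 HTN over SS HTN (x axis), for Cxcl12 and Ackr3 in endothelial cells, 4 subsets and tubule-marker cells; points are ratios and lines the 95% counting intervals of the plain ratio. Cxcl12 lies left of 0 except in Fbln5 cells (0.30), and Ackr3 lies right of 0 in tubule-marker cells (0.81).

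The gate itself bears on these levels. Cells just inside it (below 5 gate UMIs or 20 per 10000) held Cxcl12 at 121 CPM in A2 HTN, 234 CPM in SS HTN and 41.5 CPM in control. Cells just outside it (at least 2 gate UMIs and 8 per 10000) held 25.6, 158 and 78.6 CPM. Ackr3 stood at 18.7, 38.5 and 0 CPM just inside and 68.2, 38.9 and 47.2 CPM just outside.

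Outside the endothelial gate both genes were detected, Ackr3 in many cells with at most 3 UMIs each. Cxcl12 was partly held by few cells: 1 A2 HTN cell had 13 of 77 UMIs and 7 SS HTN cells had 48 of 194. The A2 HTN cell was positive for Fbln5, Ptn and Igfbp3, and 4, 3 and 5 of the 7 SS HTN cells were. Arterial markers summed to 3040 CPM in the former and 3436 CPM in the latter, and stromal markers to 0 and 5640 CPM. Of the 7 SS HTN cells, 2 passed the stromal gate and 3 the tubule gate, while the A2 HTN cell passed neither. Whether cells called non-endothelial include endothelial cells that missed the gate was not tested. In non-endothelial cells Ackr3 stood at 71.8 CPM in A2 HTN (60.1 to 85.0, 134 UMIs), 42.9 CPM in SS HTN (35.1 to 51.9, 105 UMIs) and 37.2 CPM in control (31.6 to 43.6, 153 UMIs). A2 HTN was the high library, with a log2 ratio of 0.86 over control (0.60 to 1.29) and 0.68 over SS HTN (0.36 to 1.13). Neither was 2-fold, where 2.38% and 0.290% of genes tested were at least 2-fold higher. Cxcl12 had another order, at 41.2 CPM in A2 HTN, 79.3 CPM in SS HTN and 42.6 CPM in control. It was −0.04 for A2 HTN over control, 0.82 for SS HTN over control and −0.87 for A2 HTN over SS HTN.

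Restricting to tubule-marker cells kept these orders. Ackr3 stood at 73.3 CPM in A2 HTN (60.4 to 88.2), 39.6 CPM in SS HTN (31.2 to 49.6) and 38.2 CPM in control (32.2 to 45.0), and 7.55%, 4.92% and 3.39% of cells had a UMI. The log2 ratio for A2 HTN over control was 0.86 (0.57 to 1.31), where 1.55% of genes tested were at least 2-fold higher, and it was 0.75 and 1.14 against control libraries 1 and 2 alone. Cells with more proximal than distal tubule marker UMIs gave 74.2, 38.9 and 39.8 CPM. Thinned to 1000 UMIs, 5.79% of A2 HTN, 3.49% of SS HTN and 3.68% of control tubule-marker cells had an Ackr3 UMI. The log2 ratio of endothelial over tubule-marker cells for Ackr3 was −1.65 in A2 HTN (−2.27 to −1.49), −0.19 in SS HTN (−0.63 to 0.21) and −1.05 in control (−2.74 to −0.11). For Cxcl12 it was −0.01 in A2 HTN (−0.52 to 0.51), 0.70 in SS HTN (0.45 to 1.05) and −1.13 in control (−2.82 to −0.20). No tubule-marker cell held more than 3 Ackr3 UMIs. Whether those UMIs come from the cells or from free RNA in the droplets was not tested.

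For Cxcl12 the tubule-marker level was 27.5 CPM in A2 HTN (19.8 to 37.2), 63.1 CPM in SS HTN (52.3 to 75.4) and 40.6 CPM in control (34.4 to 47.6). The log2 ratio was −0.49 for A2 HTN over control (−1.09 to −0.06), 0.58 for SS HTN over control (0.28 to 0.99) and −1.07 for A2 HTN over SS HTN (−1.74 to −0.68), the last past 2-fold, where 0.376% of genes tested were. Cells with a UMI made up 2.86% of A2 HTN, 6.15% of SS HTN and 3.59% of control tubule-marker cells. The few cells with stromal markers alone gave 447 CPM in A2 HTN (5 UMIs in 7 cells), 991 CPM in SS HTN (5 UMIs in 2 cells) and 0 UMIs in 7 control cells, which allows up to 271 CPM. SS HTN cells with podocyte markers alone gave 184 CPM (16 UMIs in 34 cells). Podocytes are the filtering epithelial cells of the glomerulus.

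Cxcr4, the signalling receptor, was listed for both hypertension groups but not for control, so it has no control level here. It stood at 22.1 CPM in A2 HTN (122 UMIs) and 29.8 CPM in SS HTN (118 UMIs) endothelial cells, a log2 ratio of −0.36 (−0.81 to −0.05). Outside the endothelial gate it was 2.68 CPM in A2 HTN and 4.50 CPM in SS HTN. Cxcr4 had 0 UMIs in the 5 A2 HTN and 20 SS HTN Ptn cells, which allows up to 316 CPM in A2 HTN and 47.5 CPM in SS HTN.

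A list of 51 other gene symbols of the pathway, with Grk2 and Grk3 also under their older symbols, held 33 genes that all 3 library tables carry. In endothelial cells 32 of them passed the 20-UMI minimum in A2 HTN over control, 31 in SS HTN over control and 33 in A2 HTN over SS HTN. At least 2-fold higher and lower were 1 and 2 genes in A2 HTN over control (2.08% and 3.78% of all genes), 2 and 1 in SS HTN over control (3.44% and 1.76%) and 2 and 1 in A2 HTN over SS HTN (0.411% and 2.51%). Their medians were 0.18, 0.07 and −0.02, beside −0.02, −0.01 and −0.03 over all genes, and 25 of the 32 lay above 0 in A2 HTN over control. Among ligands, Mif, a cytokine that also binds CXCR4 and ACKR3, stood at 130 CPM in A2 HTN, 153 CPM in SS HTN and 114 CPM in control. Cd74, the MIF receptor chain and class II invariant chain, was the 1 gene at least 2-fold higher in A2 HTN over control, at 428 CPM in A2 HTN, 144 CPM in SS HTN and 170 CPM in control (log2 ratio 1.31 over control and 1.54 over SS HTN). Myeloid cells also carry Cd74, and 4 myeloid markers summed to 31.9, 21.2 and 21.2 CPM in these cells, whose part was not tested.

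The adrenomedullin receptor has Calcrl as its core and Ramp2 or Ramp3 as partner. Calcrl stood at 674 CPM in A2 HTN, 835 CPM in SS HTN and 646 CPM in control. Ramp3 stood at 424 CPM in A2 HTN, 173 CPM in SS HTN and 371 CPM in control, which was 1.27 for A2 HTN over SS HTN and −1.08 for SS HTN over control. In SS HTN, Calcrl was 1980 CPM in Ptn cells, 1062 CPM in Fbln5 cells and 624 CPM in Igfbp3 cells, while Ramp3 was 63.4, 65.8 and 240 CPM in those subsets. Arrb1, an arrestin of the kind that ACKR3 recruits, stood at 36.1 CPM in A2 HTN, 77.3 CPM in SS HTN and 34.4 CPM in control (−1.002 for A2 HTN over SS HTN and 1.06 for SS HTN over control). Dpp4, a peptidase that cuts and inactivates CXCL12, was at 3.44 CPM in A2 HTN (19 UMIs), 8.33 CPM in SS HTN (33 UMIs) and 21.2 CPM in control (8 UMIs), or −1.63 for A2 HTN over control. Proximal tubule also carries Dpp4, and the tubule markers above had the same order, whose part was not tested. Gnai1, a G-protein subunit, was −1.28 in that comparison, also from 8 control UMIs. Sox17, an arterial transcription factor, was 379 CPM in A2 HTN, 524 CPM in SS HTN and 207 CPM in control, with a log2 ratio of 1.32 for SS HTN over control.

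Profiles over 14 points, 11 endothelial subsets and the 3 non-endothelial sets with at least 20 cells each, were compared among 10303 genes. Points of 1 library share depth and free RNA, so r is a description. Nearest to Cxcl12 were Mllt3 (r = 0.94), Runx1t1 (0.94), St8sia6 (0.93), Gfod1 (0.91) and Jag1, a Notch ligand (0.90). In Fbln5 cells Jag1 stood at 163 CPM in A2 HTN and 382 CPM in SS HTN, against 21.1 CPM in A2 HTN and 35.3 CPM in SS HTN Igfbp3 cells. Nearest to Ackr3 were Kirrel3, an immunoglobulin-superfamily adhesion protein (0.94), Adgra2, an adhesion G-protein-coupled receptor (0.91), Cit (0.90), Man2a1 (0.89) and Mir100hg (0.89). Kirrel3 stood at 396 CPM in SS HTN Ptn cells and 3.68 CPM in SS HTN Igfbp3 cells. The 20 SS HTN Ptn cells were the only Ptn point, and Ackr3 stood at 570 CPM there. How far r with Ackr3 rests on that point was not tested. Between Cxcl12 and Ackr3 themselves r was 0.58.

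**Figure D5:**
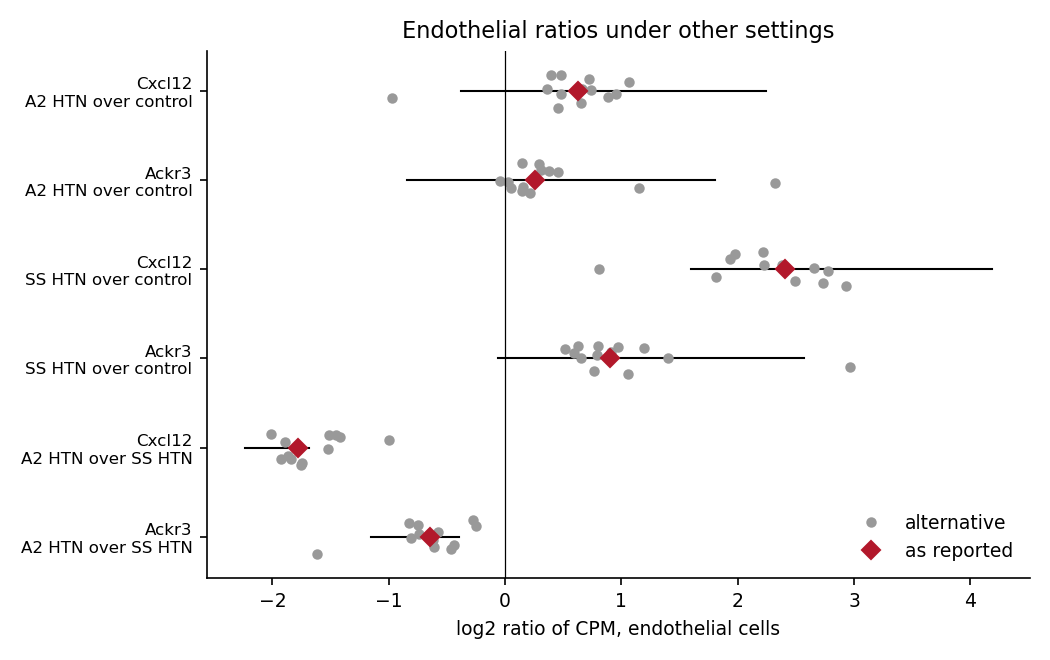
Log2 ratio of CPM + 5 in endothelial cells (x axis) for both genes in the 3 comparisons; red diamonds are the reported ratios, black lines their 95% counting intervals and grey points the same ratio under other settings. The Cxcl12 ratio of A2 HTN over SS HTN stays below 0 in each setting run (−2.01 to −0.99), and the outlying points over control are those against control library 1.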

How the data were processed

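The authors deposited raw UMI counts, a whole number for each cell and gene. Cell Ranger 7.0.0, Seurat 4.1 and build mm10 appear in the submitters' processing notes, with no role given. Kidneys were pooled by group, per the labels' protocols. No doublet caller was run, and doublets were not removed here. UMIs were summed over the cells of a set and divided by the set's total over the 11049 genes that the A2 HTN, SS HTN and control tables share (CPM). A ratio is log2 of CPM + 5, and its interval is the exact conditional (Clopper-Pearson) 95% interval of the plain ratio. Intervals of levels are exact Poisson and of shares exact binomial. All cover counting error only. With 1 library a group no test was run, and 2-fold among genes with at least 20 UMIs stands in for a call. A limit on a count of 0 uses 3 counts. Positive means at least 1 UMI. Genes named are the pair, pathway members that are 2-fold or have a direct role, and the 5 nearest profiles of each. The members and lists were chosen with earlier results of these data known. The joined hypertension table served as an alternative. Tools were Python 3.11.15, numpy 2.4.6, scipy 1.17.1 and pandas 2.3.3. The calculation was tested on simulated counts.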

Additional observations from a re-analysis of the deposited data

Results flagged for a closer look

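The Cxcl12 ratio over control differed in sign between the 2 models in 3 cell sets. In endothelial cells positive for none of the split genes the log2 ratio was −2.03 for A2 HTN over control, from 5 UMIs in each, and 0.52 for SS HTN over control. In all non-endothelial cells it was −0.04 and 0.82, and the interval of the A2 HTN ratio spans 0. In tubule-marker cells it was −0.49 for A2 HTN over control and 0.58 for SS HTN over control. Both ratios of a set share the same control cells, and the difference between models was not tested.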

How the results depend on the processing

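Ratios in endothelial cells kept their sign in most settings. Against control library 1 alone (19 endothelial cells), Cxcl12 was −0.97 for A2 HTN and 0.81 for SS HTN, and Ackr3, with 0 UMIs there, was 2.32 for A2 HTN and 2.97 for SS HTN, values that depend on the pseudocount. Cxcl12 in A2 HTN over SS HTN was −1.41 with pseudocount 20, −1.51 thinned to 1000 UMIs, −1.45 as a mean over cells, −1.53 without cells past a second gate and −0.99 with the 5 subsets weighted equally. Ackr3 in A2 HTN over SS HTN was −0.25 thinned, −0.28 as a mean over cells and −1.62 weighted equally. With cells positive for a gene whatever the others, Cxcl12 in Fbln5 over Igfbp3 cells was 2.88 in A2 HTN and 1.29 in SS HTN, and from 2 UMIs it was 1.94 in SS HTN. Thinned, Ackr3 in Ptn over Igfbp3 cells was 5.21 in SS HTN and −2.22 in A2 HTN, where 3 Ptn cells with 0 UMIs remained. In all Ptn-positive cells Ackr3 in A2 HTN over SS HTN was 0.030, against −2.38 in Ptn cells alone. Other settings that crossed 2-fold were, for Cxcl12 in A2 HTN over control, 1.07 without cells past the stromal, myeloid or tubule gate, and for Ackr3 over control, 1.15 in A2 HTN and 1.40 in SS HTN thinned, and in SS HTN 1.05 with pseudocount 1 and 1.20 without the cell with most UMIs. In tubule-marker cells they were −0.93 for Cxcl12 in A2 HTN over SS HTN thinned and 1.14 for Ackr3 in A2 HTN over control library 2. Where not stated, the cause was not tested. Leaving out the cell with most UMIs, or cells past the stromal, myeloid or tubule gate, was chosen after seeing the data, as were the alternatives for tubule-marker cells. Equal weighting could not be run against control, which has 0 Ptn-alone cells. In A2 HTN it gives 5 Ptn-alone cells, with 1 Ackr3 UMI, the weight of a full subset. No paired analysis was possible because each group has 1 library. Control values rest on 145 endothelial cells with 6 UMIs of each gene.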
